A study of Caenorhabditis elegans with 48 samples.

Results

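The genes hcp-3 and gpr-1 are 2 targets of the Rb/E2F factors of Caenorhabditis elegans, a centromere gene and a spindle gene on chromosome III. They were chosen from earlier results on these peak lists, in which both had peaks. The presence of peaks therefore selected them, and their peaks and q-values are given as a description. Every peak of 23 lists that overlapped a fixed window around each start was taken, which gave 48 peaks of any deposited q. The peaks of all lists with q below 0.001 formed 12926 merged regions. The windows span 2488 bp at hcp-3 (chromosome III, 9614898 to 9617385, WormBase release WS180) and 802 bp at gpr-1 (chromosome III, 8628050 to 8628851). Each window has the extent of the peak of germline EFL-1 replicate 3 there.

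EFL-1 is the worm E2F protein, DPL-1 is its DP partner and LIN-35 is the worm Rb protein. E2F and DP bind DNA together, Rb joins them, and the complex is known in many animals for control of genes of the cell cycle. HCP-3 is the worm CENP-A, the histone H3 variant that marks centromeric chromatin and on which kinetochores are built. Worm chromosomes are holocentric, with kinetochores along their whole length. GPR-1 and its near-identical copy GPR-2 carry a GoLoco motif, bind the G protein alpha subunits at the cell cortex and, with LIN-5 and dynein, pull on spindle poles so that embryonic cells divide asymmetrically.

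Peaks came from ChIP with an antibody to GFP in 11 strains, each with its own integrated GFP:FLAG transgene in an unc-119(ed3) III background that the transgene rescues. Germline strains were whole young adults with EFL-1 (YL445), DPL-1 (YL390) or LIN-35 (YL402) under the pie-1 promoter, or LIN-35 under the mex-5 promoter (YL468). Somatic strains were L1 larvae with EFL-1 (YL424), DPL-1 (YL425) or LIN-35 (YL409) under the factor's own promoter. Intestinal strains were L1 larvae with EFL-1 (YL418), DPL-1 (YL448), LIN-35 (YL398) or the heterochromatin protein HPL-2 (YL416) under the ges-1 promoter. Germline and L1 differ in tissue, stage and promoter at once, and these cannot be told apart. Each condition is 1 strain with 2 replicates, or 3 for HPL-2, whose library titles all carry the same date. Depth was 650000 to 5690000 ChIP reads in the 22 libraries with a listed total, and lists held 558 to 7556 peaks. A smaller q-value marks a stronger peak, but q falls with depth. The place of a peak in its own list is therefore also given, as the percent of that list's peaks with a q as small or smaller.

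The hcp-3 transcript (F58A4.3) runs on the minus strand from 9616368 to 9615207, and its end lies 178 bp from the end of F58A4.6, which runs towards it. The next gene beyond its start is hlh-11, by gene order in RefSeq. The gpr-1 transcript (F22B7.13) runs on the plus strand from 8628844 to 8630685. Its window is shared with polk-1 (F22B7.6), the gene of a translesion DNA polymerase, which starts 289 bp away and runs in the opposite direction. The copy gpr-2 (C38C10.4) starts at 9393064 on the minus strand of the same chromosome, with rgr-1, a Mediator subunit gene, as its divergent neighbour.

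The motif instances listed at the sites of gpr-1 (chromosome III, 8628278 to 8628676, plus strand) and gpr-2 (chromosome III, 9393188 to 9393612, minus strand) are shown because they are almost the same, each read along the strand of its own gene. Capitals mark the position at which they differ.
gpr-1: tgcaaatgcgcgtAatggtgt
gpr-2: tgcaaatgcgcgtGatggtgt
They differ by A14G alone, with gpr-1 first and positions counted from 1 at the 5′ end. Against the gpr-1 instance, 152 other instances of this motif had a median of 10 differences in 21 bases, and the nearest after gpr-2 had 2.

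At hcp-3, a peak with q below 0.001 was found in 20 of 23 libraries. Of all merged regions, 1.76% had such peaks in at least as many libraries, which is a background only, since presence chose the gene. The 20 were 8 of 8 germline, 6 of 6 somatic and 6 of 9 intestinal libraries. Intestinal LIN-35 replicate 2 had a weaker peak (q = 3.01e-03), and HPL-2 replicates 2 and 3 had none. The peaks of germline EFL-1 and DPL-1 were near the top of their lists, and those of L1 larvae lay lower.

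For germline EFL-1 the strongest hcp-3 peak had q = 4.06e-66 in replicate 2, in the first 0.473% of its list, and 1.50e-191 in replicate 3, in the first 0.0283%. The peak of replicate 3 was place 2 of that list. Germline DPL-1 had q = 8.86e-26 in replicate 1 (0.473%) and 1.87e-43 in replicate 4 (0.986%). Both factors thus had hcp-3 within the first 1% of each list. Germline LIN-35 from the pie-1 promoter had q = 6.58e-15 in replicate 2 (0.445%) and 3.30e-06 in replicate 3 (4.53%). From the mex-5 promoter it had q = 6.12e-18 in replicate 1 (1.82%) and 1.51e-08 in replicate 2 (8.06%). The q-values of LIN-35 were larger than those of EFL-1 and DPL-1. Its place depends on the length of the list, since 325 peaks of pie-1 replicate 3 and 261 of mex-5 replicate 2 had q below 0.001. Among those peaks alone hcp-3 was in the first 27.7% and 17.2%.

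In the soma, EFL-1 had q = 6.02e-24 (25.9% of the list) and 3.19e-106 (10.2%) at hcp-3 in replicates 1 and 2. DPL-1 had q = 1.33e-74 (12.1%) and 1.60e-41 (17.3%). Somatic LIN-35 had q = 2.53e-22 (8.97%) and 2.96e-21 (17.96%). The somatic peaks of all 3 factors thus lay lower in their lists than those of germline EFL-1 and DPL-1. In the intestine, EFL-1 had q = 2.74e-23 (26.1%) and 2.66e-11 (37.0%) in replicates 2 and 3. DPL-1 had q = 2.05e-75 (7.61%) and 2.61e-18 (20.3%) in replicates 1 and 2. LIN-35 had q = 3.68e-59 (11.4%) and 3.01e-03 (76.2%), from 5690000 and 920000 ChIP reads. HPL-2 replicate 1 had q = 1.19e-06 (43.1%). The range of the 8 germline libraries (0.0283% to 8.06%) and that of the 12 L1 libraries of the same factors (7.61% to 76.2%) overlapped little over all deposited peaks. Among peaks with q below 0.001 alone they overlapped more, at 0.0425% to 27.7% in the 8 germline libraries and 9.57% to 51.6% in the 11 L1 libraries with such a peak. There the germline EFL-1 and DPL-1 libraries stayed within the first 1.66%, ahead of every L1 library, and the germline LIN-35 libraries ranged from 1.57% to 27.7%.

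In order of the mean place of hcp-3 in the list, germline EFL-1 came first (0.251%), then germline DPL-1 (0.730%), germline LIN-35 (pie-1) (2.49%) and germline LIN-35 (mex-5) (4.94%). Somatic LIN-35 (13.5%), intestinal DPL-1 (14.0%), somatic DPL-1 (14.7%) and somatic EFL-1 (18.02%) followed. Intestinal EFL-1 (31.5%), HPL-2 (43.1%, from 1 library) and intestinal LIN-35 (43.8%) were last. The replicates of neighbouring strains overlapped in 6 of 10 pairs, and strains further apart overlapped too. Germline EFL-1 (0.0283% to 0.473%) overlapped germline LIN-35 (pie-1) (0.445% to 4.53%). Germline LIN-35 (mex-5) (1.82% to 8.06%) overlapped intestinal DPL-1 (7.61% to 20.3%). Intestinal LIN-35 (11.4% to 76.2%) overlapped every other L1 strain. Over all deposited peaks, germline EFL-1, DPL-1 and LIN-35 (pie-1) lay ahead of every L1 strain, and the order is otherwise not fully resolved. Germline EFL-1 replicate 2 and germline DPL-1 replicate 1 were at almost the same place.

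**Figure D1:**
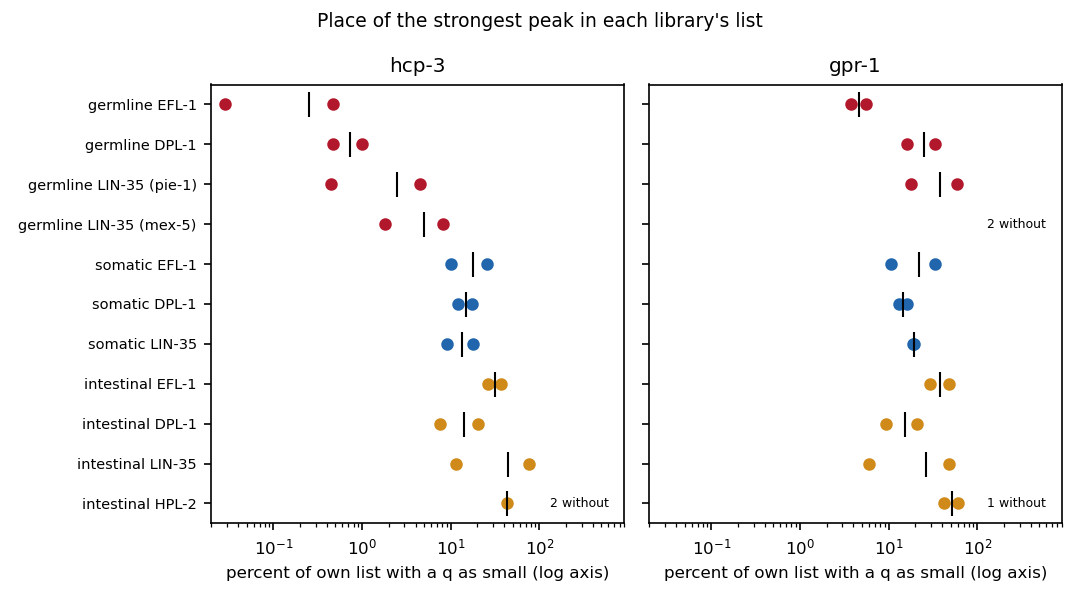
Place of the strongest peak at hcp-3 (left) and gpr-1 (right) in the list of each library, as the percent of the list with a q as small, on a log axis. Dots are libraries (red germline, blue soma, orange intestine), black ticks are means over the replicates with a peak, and libraries with no peak are counted at the right; at hcp-3 the germline dots lie between 0.0283% and 8.06%.

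In most germline libraries the strongest hcp-3 peak lay upstream of the transcript start, and in most L1 libraries it lay over the start. Distances are from the transcript start to the centre of the strongest peak, counted upstream. In germline LIN-35 (pie-1) the centre lay 648.5 bp upstream in replicate 2 and 657 bp in replicate 3. In germline LIN-35 (mex-5) it lay 647 bp upstream in replicate 1 and 660.5 bp in replicate 2. All of these LIN-35 peaks were 248 to 363 bp wide, and none reached the start. Germline EFL-1 replicate 2 had its strongest peak 637.5 bp upstream, and a separate peak of 418 bp (q = 5.70e-07) over the start. Germline DPL-1 replicate 1 had a peak of 657 bp centred 483 bp upstream. Germline DPL-1 replicate 4 (1039 bp wide) and germline EFL-1 replicate 3 (2488 bp wide) had single peaks that covered both positions, centred 352 bp upstream and at -226.5 bp, inside the gene. Germline EFL-1 replicate 3 is also the deeper library of its strain, with 2670000 ChIP reads against 1910000 in replicate 2, and the part of depth in this width was not tested.

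In the soma the centres at hcp-3 lay 157.5 and 145 bp upstream for EFL-1, 120 and 145.5 bp for DPL-1, and 395.5 and 152 bp for LIN-35. In the intestine they lay 140 and 178.5 bp upstream for EFL-1, 315.5 and 165.5 bp for DPL-1, and 129.5 and 147.5 bp for LIN-35. The centre of HPL-2 replicate 1 lay at 132.5 bp. The L1 centres thus sat close together, and the exceptions were somatic LIN-35 replicate 1 (900 bp wide) and intestinal DPL-1 replicate 1 (830 bp wide), whose peaks reached from the start to the upstream position.

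The test compared the mean of each strain over its replicates. The germline centre was 482 ± 215 bp upstream (SD, n = 4 strains) and the L1 centre 181 ± 60.8 bp (SD, n = 6 strains), a difference of 301 bp (exact permutation test, two-sided, p = 0.0143, smallest possible p = 0.00476). LIN-35 enters the germline mean with both of its strains (652.75 and 653.75 bp), beside DPL-1 (417.5 bp) and EFL-1 (205.5 bp). Strains were not matched by factor. Germline EFL-1 lay within the range of the L1 strains (129.5 to 273.75 bp), above somatic EFL-1 (151.25 bp) and intestinal EFL-1 (159.25 bp). The same test was run over all 1511 merged regions with peaks in at least 2 germline and 2 L1 strains. Of these, 385 (25.5%) had an exact p below 0.05 and 13.2% had a difference at least as large, and after Benjamini-Hochberg adjustment over all of them the exact p for hcp-3 was 0.182. The shift at hcp-3 did not pass the adjusted threshold, and 0 of the 1511 regions did. Only 110 regions had an exact p as small as that of hcp-3 or smaller. Even the smallest possible p of 0.00476 could therefore not have passed, and the adjustment cannot decide the shift. The shift was 193 bp without germline EFL-1 replicate 2 (exact p = 0.257), when the broad peak of replicate 3 alone stood for that strain. The extent of that broad peak also set the window, so its centre is not independent of the choice of window. Without replicate 3 the shift was 409 bp. In the libraries whose strongest peak was under 700 bp the shift was 458 bp (exact p = 0.00476), a choice made after the peaks were seen. That cut dropped germline EFL-1 replicate 3, germline DPL-1 replicate 4, somatic LIN-35 replicate 1 and intestinal DPL-1 replicate 1. Their broad peaks covered both positions, so this value adds no support to the shift.

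Width at hcp-3 was not resolved. The strongest peak was 722 ± 540 bp wide in germline strains (SD, n = 4) and 495 ± 111 bp in L1 strains (SD, n = 6), a difference of 227 bp (exact permutation test, two-sided, p = 0.376, 0.542 after adjustment over the 1511 regions). Of those regions, 29.1% had an exact p below 0.05 for width. The spread of the germline was set by germline EFL-1 replicate 3, whose peak was place 15 of its list by width, and without it the difference was -36.0 bp. The extent of that peak also set the window, so its width is not independent of the choice of window.

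**Figure D2:**
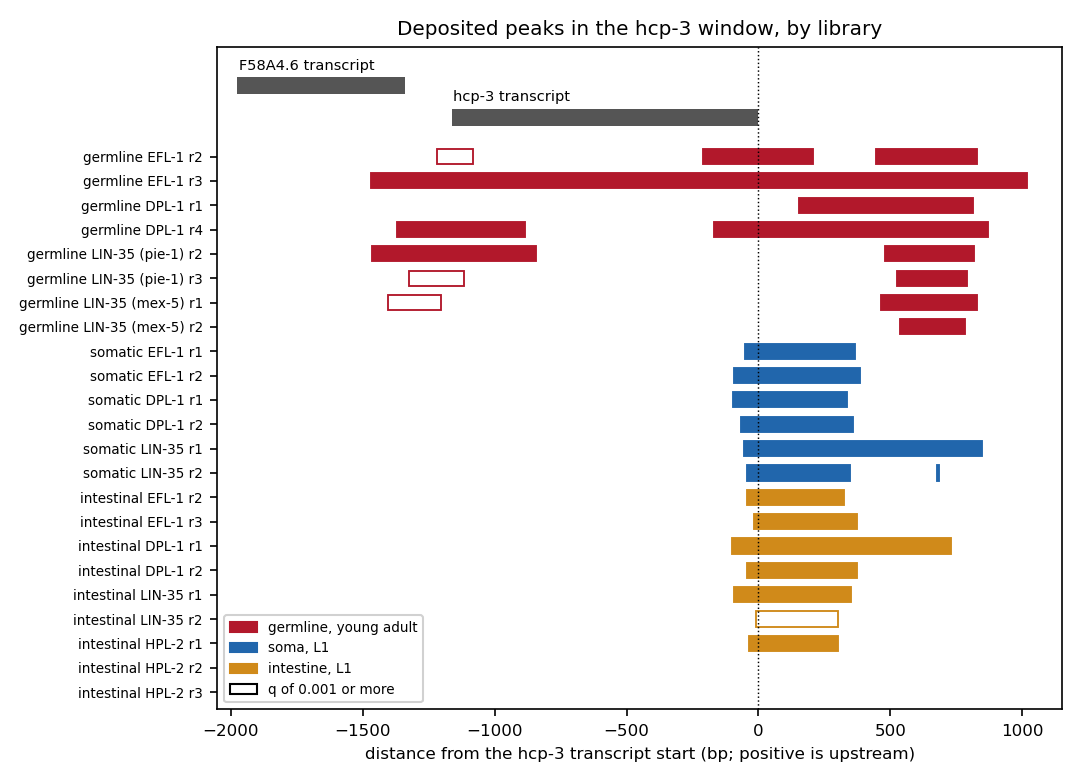
Every deposited peak in the hcp-3 window, 1 row per library, against the distance from the hcp-3 transcript start in bp, upstream to the right, with the transcripts of hcp-3 and F58A4.6 as grey bars. Filled bars had q below 0.001 and open bars a larger q, and bars are drawn at least 8 bp wide; all 8 germline libraries cover the upstream position, and only germline libraries have a peak at the transcript end.

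The peaks were also counted at each position, in stretches of 100 bp to either side of a point. The points were set from these same peaks after they were seen, so the counts describe the plot and add no support to the shift. Around the median L1 centre (152 bp upstream), a peak with q below 0.001 was present in 6 of 6 somatic, 5 of 6 intestinal E2F and Rb libraries and 1 of 3 HPL-2 libraries. In the germline it was present in 4 of 8, all of them EFL-1 or DPL-1. Around the median germline centre (642 bp upstream), it was present in 8 of 8 germline, 2 of 6 somatic, 1 of 6 intestinal and 0 of 3 HPL-2 libraries. A somatic one of these was a peak of 2 bp in LIN-35 replicate 2 (q = 3.12e-04). Germline LIN-35 had peaks at the upstream position in 4 of 4 libraries and at the start in none.

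A further peak at hcp-3 lay over the end of the transcript, or in germline LIN-35 (mex-5) replicate 1 just beyond it, towards F58A4.6. This stretch is in the window because the broad peak of germline EFL-1 replicate 3 set its extent, and that peak is counted here. The share of all regions with peaks in the germline alone was not counted, so the counts are a description. Among all deposited peaks, a peak within 100 bp of the end was seen in 6 of 8 germline libraries and in 0 of 15 others. With q below 0.001 it was seen in 3 germline libraries. These were germline LIN-35 (pie-1) replicate 2 (q = 1.74e-06, 623 bp wide), germline DPL-1 replicate 4 (q = 2.99e-04, 485 bp wide) and germline EFL-1 replicate 3, where the single broad peak covered it. In germline EFL-1 replicate 2 (q = 2.82e-03), germline LIN-35 (pie-1) replicate 3 (q = 5.49e-03) and germline LIN-35 (mex-5) replicate 1 (q = 5.38e-03) it was weaker. The upstream peak had q below 0.001 in both mex-5 libraries, and the end peak had it in pie-1 strains alone.

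At gpr-1, a peak with q below 0.001 was found in 17 of 23 libraries, against 4.92% of merged regions with such peaks in at least as many. The 17 were 4 of 8 germline, 6 of 6 somatic and 7 of 9 intestinal libraries. The germline libraries with such a peak were the EFL-1 and DPL-1 libraries. Germline LIN-35 (pie-1) had weak peaks (q = 4.85e-03 and 1.42e-03 in replicates 2 and 3), and germline LIN-35 (mex-5) had none, from 1600000 and 650000 ChIP reads.

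Germline EFL-1 had q = 1.35e-24 in replicate 2 (5.57% of the list) and 5.78e-62 in replicate 3 (3.76%) at gpr-1. Germline DPL-1 had q = 1.39e-05 in replicate 1 (33.5%) and 7.82e-11 in replicate 4 (15.99%). In the germline gpr-1 was thus highest in the EFL-1 lists, and in each germline list with a gpr-1 peak it lay lower than hcp-3. In the soma, EFL-1 had q = 3.86e-15 (32.9%) and 5.44e-101 (10.6%), DPL-1 had 8.89e-67 (13.2%) and 4.36e-46 (15.9%), and LIN-35 had 2.91e-11 (18.6%) and 1.47e-19 (19.5%). In the intestine, EFL-1 had q = 1.28e-19 (29.0%) and 2.19e-07 (47.3%), and DPL-1 had 1.29e-61 (9.38%) and 9.29e-18 (21.0%). Intestinal LIN-35 had q = 1.59e-98 (6.01%) and 1.04e-04 (47.2%). HPL-2 had q = 7.39e-07 in replicate 1 (41.8%), no peak in replicate 2 and q = 1.46e-03 in replicate 3 (60.6%). Somatic and intestinal libraries of the same factor overlapped in place for EFL-1, DPL-1 and LIN-35.

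By the mean place in the list, germline EFL-1 (4.67%) was first at gpr-1 and did not overlap the next strain, somatic DPL-1 (14.5%). Intestinal DPL-1 (15.2%), somatic LIN-35 (19.1%), somatic EFL-1 (21.8%), germline DPL-1 (24.7%) and intestinal LIN-35 (26.6%) came next. Intestinal EFL-1 (38.1%), germline LIN-35 (pie-1) (38.2%) and HPL-2 (51.2%, from 2 libraries) were last. The replicates of neighbouring strains overlapped in 8 of 9 pairs, so apart from germline EFL-1 the order is not resolved.

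Within a library, hcp-3 had a smaller q than gpr-1 in 6 of 6 germline libraries with a peak at both, by 2.63 to 130 on the -log10 scale. Both germline LIN-35 (mex-5) libraries had a peak at hcp-3 alone. In the 12 L1 libraries of the same factors it was smaller in 9, with a difference from -39.4 to 13.8. In L1 libraries either gene could thus be ahead, and in these 6 germline libraries hcp-3 was. Both genes were chosen for their peaks, so this is a description with no test.

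At gpr-1, the germline and L1 peaks lay over the same stretch. The strongest peaks with q below 0.001 were centred 306.5 to 393.5 bp upstream of the gpr-1 start in all 17 libraries, with a median of 358 bp. This is 17.5 to 104.5 bp inside polk-1, counted from the polk-1 start, so every centre lay nearer to the start of polk-1 than to that of gpr-1. The germline centre was 341 ± 33.9 bp upstream (SD, n = 2 strains) and the L1 centre 362 ± 3.76 bp (SD, n = 6 strains), a difference of -21.3 bp (exact permutation test, two-sided, p = 0.214, 0.416 after adjustment over the 1511 regions). Width was 463 ± 240 bp against 375 ± 37.2 bp, a difference of 87.3 bp (exact p = 0.357, 0.520 after adjustment). With 2 germline strains the smallest possible exact p was 0.0357, which could not have passed after adjustment over the 1511 regions. The peak of germline EFL-1 replicate 3, whose extent set this window, enters both tests. Without that library, the centre differed by -35.6 bp (exact p = 0.0357) and the width by 2.33 bp.

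**Figure D3:**
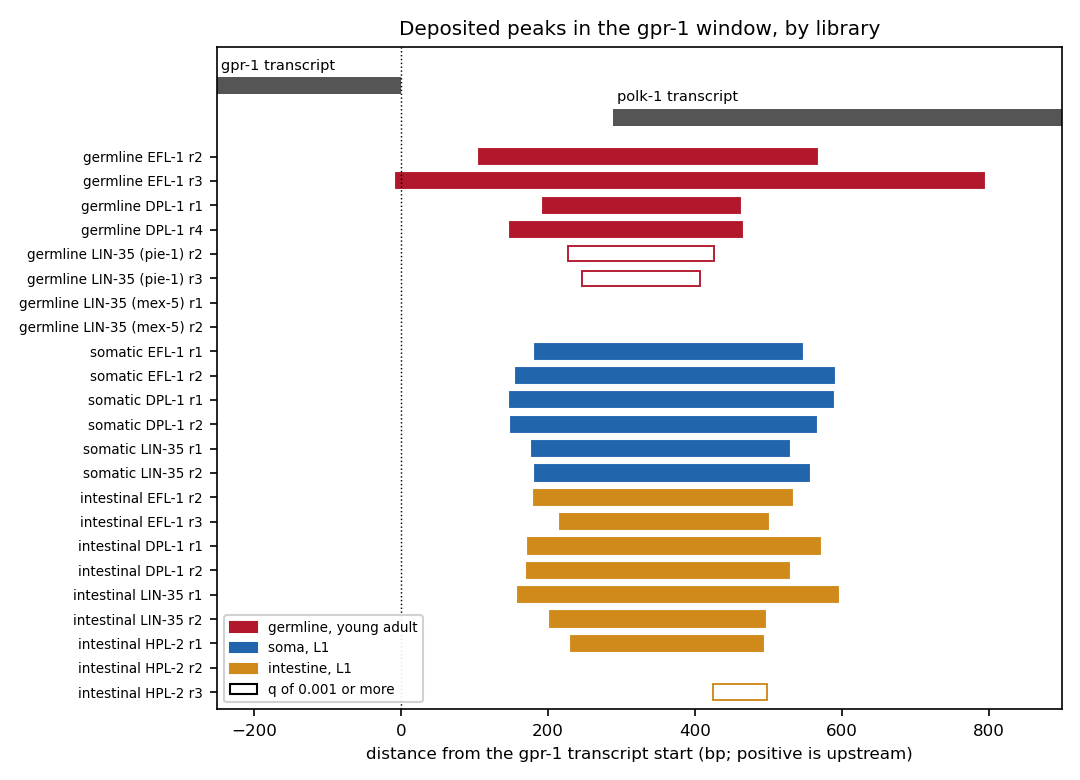
Every deposited peak in the gpr-1 window, 1 row per library, against the distance from the gpr-1 transcript start in bp, upstream to the right, with the transcripts of gpr-1 and polk-1 as grey bars. Filled bars had q below 0.001 and open bars a larger q. Germline, somatic and intestinal peaks share 1 position, over the start of polk-1, except the weak peak of HPL-2 replicate 3, which lies inside polk-1.

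The site of gpr-2, the copy of gpr-1, was read beside it, and its -log10 q went with that of gpr-1 over the 23 libraries (Spearman's rho = 0.95, as a description). This was place 6 of 42 among the listed genes counted below, so a rho this high was not particular to the copy. The gpr-2 site had a peak with q below 0.001 in 18 of 23 libraries, which were 5 germline, 6 somatic and 7 intestinal. Its peaks were centred 287.5 to 394 bp upstream of the gpr-2 start (median 331 bp over 19 peaks of any q). In 16 of the 19 libraries with a peak at both, the gpr-2 peak had the smaller q. The exceptions were germline LIN-35 (pie-1) replicate 3, somatic LIN-35 replicate 2 and intestinal LIN-35 replicate 1, all of them LIN-35 libraries. In each of these strains the other replicate had the smaller q at gpr-2, so no LIN-35 strain went 1 way in both replicates. In germline EFL-1 the -log10 q was 23.9 at gpr-1 and 43.7 at gpr-2 in replicate 2, and 61.2 and 107 in replicate 3. The copies are close in sequence, and reads that match both cannot be assigned with certainty. The sources used here do not say how such reads were placed, so the strength of either peak is uncertain, and its part in these values was not tested. As the motif instances above show, the copies also share sequence within the bound sites.

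**Figure D4:**
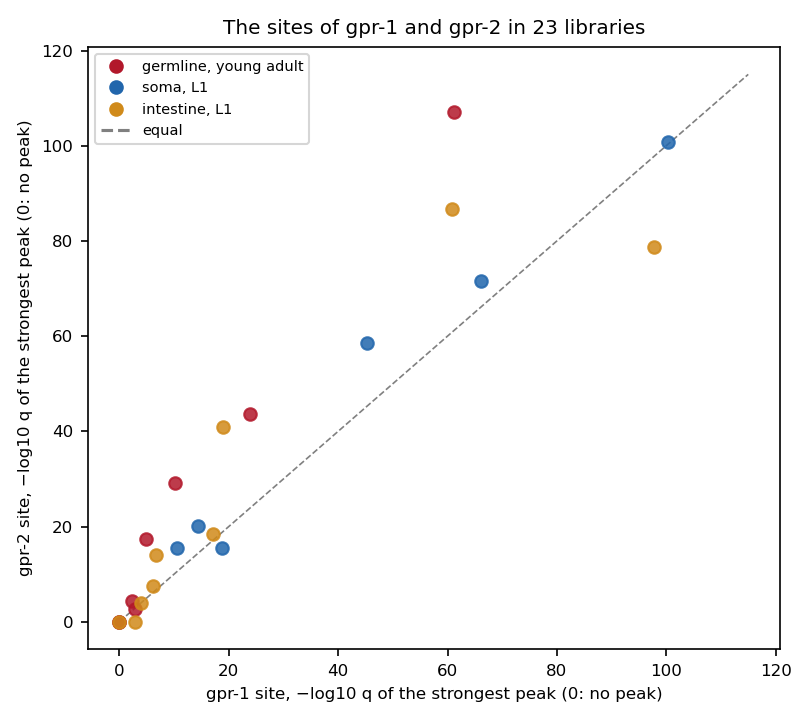
The −log10 q of the strongest peak at the gpr-1 site (horizontal) and the gpr-2 site (vertical), 1 dot per library (red germline, blue soma, orange intestine), with 0 for no peak and a dashed line where both are equal. In 16 of 19 libraries with a peak at both sites the dot lies above the line.

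Listed genes of the centromere and spindle were counted in the same way. Of 64 genes in 4 lists, 43 could be placed at a site, and placing needs a site of the study's classes, so they are a selected set. Of the genes of the centromere and kinetochore, 21 of 27 were placed, with peaks at q below 0.001 in a median of 16 of 23 libraries (4 to 21), against 12 over all 1922 sites of the same table. Peaks in germline, soma and intestine were found for 20 of the 21, against 70.3% of all those sites. The exception was cpar-1, the paralogue of hcp-3. It had peaks in germline EFL-1 (q = 2.80e-15 and 6.76e-25) and germline DPL-1 (q = 1.33e-04 and 1.23e-07) and none in L1. The genes with the most libraries were mdf-2, the worm Mad2 of the spindle checkpoint (21), hcp-3 (20) and kbp-4, of the outer kinetochore (20).

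All 3 placed genes of the chromosomal passenger complex had peaks in the 3 tissues, in 20 libraries for csc-1, 15 for icp-1 and 14 for air-2, the Aurora B kinase. Of 12 genes of spindle positioning, 7 were placed (median 15 libraries), with lin-5 in 19, gpr-2 in 18 and gpr-1 in 17. Peaks in the 3 tissues were found for 5 of the 7 (71.4%), near the 70.3% of all sites. Of the other placed genes of this list, dnc-2, a dynactin subunit, had no germline peak. The other, dhc-1, the dynein heavy chain, had peaks in the germline alone (3 libraries). All 12 placed genes of the centrosome and spindle assembly, of 21, had peaks in the 3 tissues (median 14.5 libraries), from 8 for klp-7 to 22 for klp-18, a kinesin of spindles without centrosomes. In the 4 lists, peaks in 8 of 8 germline libraries were seen at hcp-3 and klp-18. Of the 43 genes, 16 had peaks in at least as many libraries as gpr-1 and 5 in at least as many as hcp-3, each member counted.

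**Figure D5:**
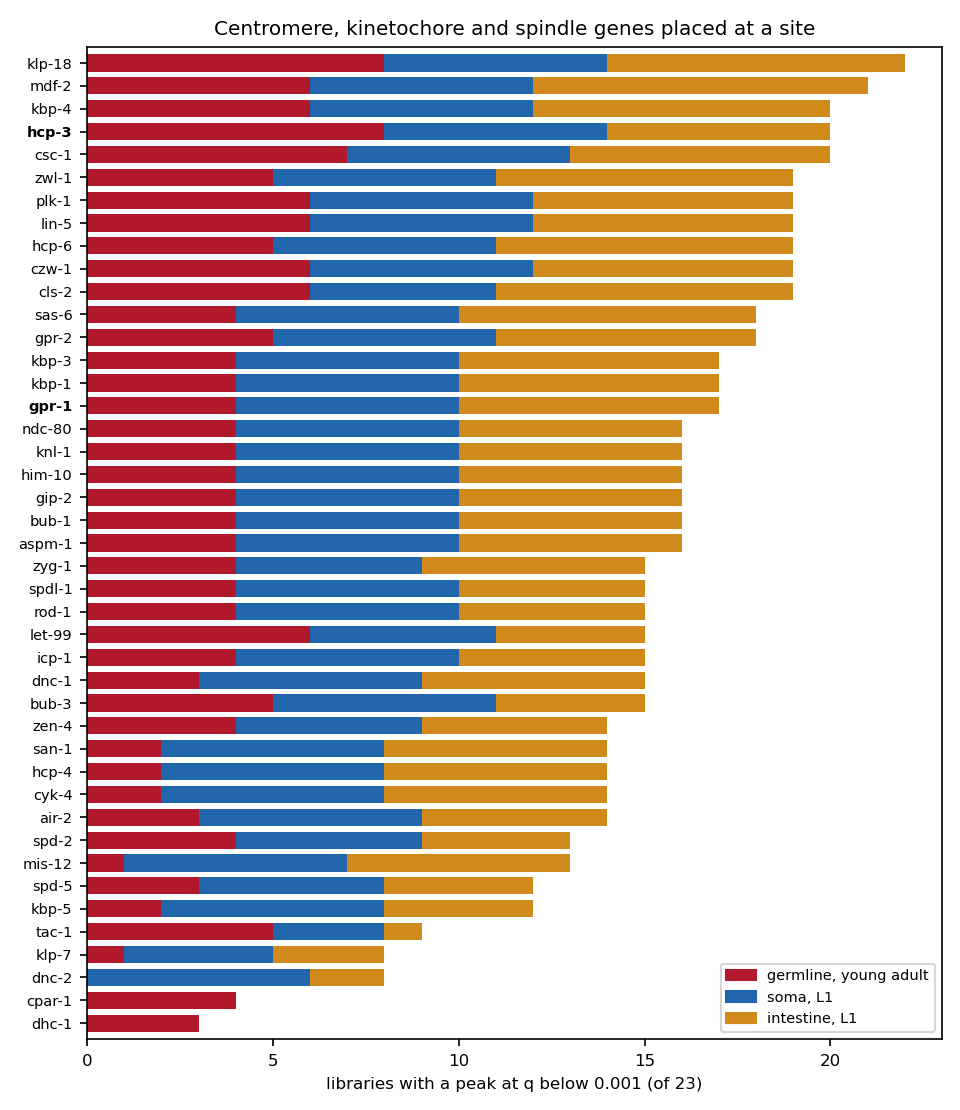
Number of libraries, of 23, with a peak at q below 0.001 at the site of each of 43 listed genes, split into germline (red), soma (blue) and intestine (orange), with hcp-3 and gpr-1 in bold. The bars run from 3 libraries at dhc-1 to 22 at klp-18, and hcp-3 is at 20 and gpr-1 at 17.

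The genes most like each member were found by Spearman's rho of -log10 q over the 23 libraries, with 0 for no peak. All genes share the depth of these libraries. For hcp-3 they were gpr-2 (rho = 0.94), plk-1, the polo-like kinase (0.93), and bub-3, a checkpoint gene (0.92). For gpr-1 they were aspm-1, a spindle pole gene (0.97), gip-2, a gamma-tubulin complex gene (0.97), and klp-18 (0.97), of which the first pair overlap in their sites. Between hcp-3 and gpr-1 rho was 0.85, which was place 14 of 42 among the genes most like hcp-3 and place 30 of 42 among those most like gpr-1.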

How the data were processed

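Of 48 samples in the series, 22 are inputs, and 23 ChIP libraries (anti-GFP, 11 strains) have a deposited peak list, which was used. The authors called peaks per library with PeakSeq against input, after combining 2 sequencing runs in 3 libraries, and deposited start, end and a q-value for each peak in WS180 coordinates, with q-values up to 0.01. The sources used here do not name the aligner. ChIP read totals and transcript models came from the study's tables, and symbols from RefSeq (WBcel235, names and gene order only). Reads and pooled-replicate peaks were not used here.

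A library had a peak where a peak with q below 0.001 overlapped the window by at least 1 bp. Merged regions join peaks of any library that have q below 0.001 and overlap by at least 1 bp. Centre and width of the strongest peak were averaged over replicates, and 4 germline strains were compared with 6 L1 strains by an exact permutation test (two-sided). HPL-2 has no germline strain and was left out. P-values were adjusted over all merged regions in place of the planned adjustment over 4 tests. Replicates are separate cultures of 1 strain, so p-values measure the spread between strains. Genes of chromosome V were left out, because its coordinates in the site table are offset from the peaks. Named genes were the members, their neighbours in the site table within 5 kb, gpr-2 and rgr-1, the 3 listed genes most like each member, and examples of a count.

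The members and lists were chosen with earlier results of these data known. Alternatives were all deposited peaks, q below 1e-05, an overlap of 50% of the peak, the widest peak or covered length, HPL-2 added or its replicate 3 left out, each replicate left out, the median over replicates and single libraries as units. The stretches of the hcp-3 window, peaks under 700 bp, places among peaks with q below 0.001 and the test over all regions were added after seeing the data. The steps were tested on simulated data, and the overlaps matched bedtools 2.31.1 in 23 of 23 lists. Python 3.11.15, numpy 2.4.6 and scipy 1.17.1 were used.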

Additional observations from a re-analysis of the deposited data

How the results depend on the processing

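The counts of libraries with a peak at hcp-3 (20 to 21) and gpr-1 (15 to 20) and of listed genes with a peak in at least 12 libraries (34 to 38) stayed within 1.5 times their value under every alternative run. The median place of the strongest peak with q below 0.001, taken among such peaks alone, moved from 9.56% to 15.2% of the list at hcp-3 and from 18.6% to 26.9% at gpr-1, since these lists are shorter. The germline to L1 difference in centre at hcp-3 was -3.73 bp when the widest peak replaced the strongest (exact p = 0.981), since in 2 germline strains the widest peak of a library is not the upstream one. Leaving out 1 replicate gave 193 to 409 bp, with 18 of 19 exact p below 0.05 and the exception named above. For width at hcp-3 it gave -36.0 to 490.5 bp. The difference was -6.83 bp in libraries whose strongest peak is under 700 bp, a cut made on width itself. At gpr-1, width differed by -6.67 bp with all deposited peaks, which add the narrow germline LIN-35 peaks, and leaving out 1 replicate gave 2.33 to 172 bp for width and -35.6 to -7.08 bp for centre. Across replicates, no paired analysis was possible because the tests compare means of different strains, whose replicate numbers mark separate cultures. Strains could be paired by factor across tissues, and such a pairing was not tested. By strain means, the germline centre at hcp-3 lay further upstream than both L1 centres for EFL-1 (205.5 against 151.25 and 159.25 bp) and DPL-1 (417.5 against 132.75 and 240.5 bp). For LIN-35 it did so in both germline strains (652.75 and 653.75 against 273.75 and 129.5 bp). The germline EFL-1 replicates lay on either side of the L1 values (637.5 and -226.5 bp). Peak lists give no counts in regions without a peak, so weak binding was not detectable at this depth.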

Other observations

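The sites next to both windows had values of their own. The site shared by pri-1, the DNA primase small subunit gene, and F58A4.6 begins 361 bp beyond the hcp-3 window. It had a peak with q below 0.001 in 15 of 23 libraries, 3 of them germline, 6 somatic and 6 intestinal. None of the 4 germline LIN-35 libraries had a peak there with any q, while all of them had the upstream peak at hcp-3. In germline EFL-1 its q was 8.04e-11 (18.6% of the list) and 8.78e-26 (11.9%) in replicates 2 and 3. In somatic EFL-1 replicate 2 it was 2.33e-125 (8.30%), ahead of hcp-3 in the same list.

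The site of dnj-10, a gene of the DnaJ family 1850 bp beyond the gpr-1 window, had such a peak in 19 of 23 libraries, 5 of them germline, 6 somatic and 8 intestinal. These peaks were centred 110.5 to 219 bp upstream of the dnj-10 start, with a median of 152.5 bp.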
